A study of Mus musculus with 2 samples.

Results

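The insulin-like growth factor genes of the embryonic mouse midbrain are described here as 10 genes, chosen by symbol from 43346 genes measured. They are 2 ligands (Igf1, Igf2), 3 receptors (Igf1r, Igf2r, Insr) and 5 binding proteins (Igfbp2, Igfbp3, Igfbp4, Igfbp5, Igfbp6), and all 10 were found in both libraries with their 38 annotated transcripts. RNA had been sequenced from the midbrain of B6NCrl embryos at 12.5 days, with both sexes pooled and no altered gene named in the labels. The single group held 2 libraries from separate pools, replicate 2 of 88 embryos and replicate 1 of 120 embryos, each prepared from 10 ng of RNA over 200 nt long. No treatment, genotype or stage was compared, so the comparisons are between these genes, between their transcripts and between the 2 pools.

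Insulin-like growth factors are secreted peptides that promote growth, survival and division of cells. Both bind the receptor tyrosine kinase encoded by Igf1r, and Igf2 also binds a form of the insulin receptor, after which insulin receptor substrates, phosphatidylinositol 3-kinase, Akt and mTOR carry the signal. Igf2r, the mannose 6-phosphate receptor, takes Igf2 to lysosomes, and the binding proteins hold the ligands outside the cell, where proteases release them. In the embryonic brain, Igf2 is known from meninges, vessels and choroid plexus and Igf1r from neural progenitors and neurons.

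Expected counts totalled 37381984 in replicate 2 and 29430493 in replicate 1, with 36082643 and 28212923 of them on genes. The tissue label was checked against 7 midbrain neuroepithelium markers and 6 neuron markers. All 13 were above 1 TPM in both libraries, beside 60.5% of all measured protein-coding genes at 1 TPM or more. Otx2 was at 142 TPM in replicate 2, against 147 TPM in replicate 1. Other midbrain markers were much lower, with En1 at 8.49 and 5.9 TPM, Pax5 at 8.14 and 4.88, Pax7 at 4.68 and 3.55 and En2 at 1.73 and 1.2. Connective tissue, vessel, blood and macrophage markers were present too. In such bulk RNA, fewer cells of a type and less RNA per cell cannot be told apart. Levels below are TPM, a normalised transcript abundance after division by effective length, the scale on which genes of different length can be compared.

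The binding proteins Igfbp2 and Igfbp4 and the ligand Igf2 were the most abundant of the 10 genes, the 3 receptors lay near the middle of all expressed genes by gene-level TPM, and Igf1, Igfbp3 and Igfbp6 were the lowest. Igfbp2 averaged 483 ± 59.1 TPM (SD, n = 2), above 98.5% of the 13202 nuclear protein-coding genes with a mean of at least 1 TPM. Igfbp4 averaged 230.1 ± 47.7 TPM and Igf2 147 ± 35.2 TPM, above 95.5% and 92.3% of those genes. After them the level dropped 4.06-fold to Insr, which averaged 36.3 ± 0.509 TPM. That place rests on a retained-intron transcript, since over protein-coding transcripts alone Insr averaged 4.58 ± 0.0495 TPM, below Igf1 at 11.02 TPM and Igfbp3 at 6.48 TPM. Igf1r at 31.2 ± 1.18 TPM and Igfbp5 at 29.4 ± 5.32 TPM were the only neighbours in the order whose library values overlapped. Igf2r averaged 16.7 ± 0.0919 TPM, Igf1 11.03 ± 2.72 TPM and Igfbp3 6.48 ± 0.269 TPM. Igfbp6 closed the order at 0.295 ± 0.0495 TPM, with 6 expected counts in each library. Thus 9 of the 10 genes reached 1 TPM in both libraries, beside 60.5% of all measured protein-coding genes.

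**Figure D1:**
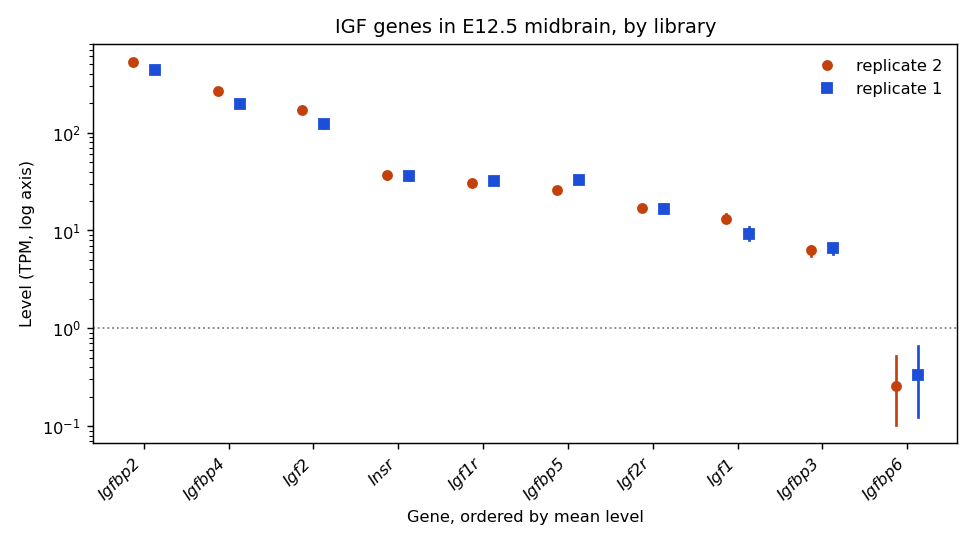
Level of each gene in TPM (log axis), with replicate 2 as circles and replicate 1 as squares, vertical lines for the deposited TPM interval of each library and a dotted line at 1 TPM. Igfbp2, Igfbp4 and Igf2 lie above 100 TPM in both libraries, and Igfbp6 is the only gene under 1 TPM.

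Of the ligands, Igf2 was far above Igf1. Igf2, a growth factor of the fetus expressed from the paternal allele in most mouse tissues (chromosome 7, 142650766 to 142666816, minus strand, mm10), was at 172 TPM in replicate 2, against 122 TPM in replicate 1. Igf1, the growth factor that mediates much of the action of growth hormone after birth (chromosome 10, 87858265 to 87937042, plus strand), was at 12.95 and 9.10 TPM. Both ligands were thus higher in replicate 2, and their values did not overlap between the genes. The log2 ratio of Igf2 to Igf1 was 3.73 in replicate 2 and 3.75 in replicate 1, a mean of 3.74 ± 0.01 (SD, n = 2) or 13.3-fold and 13.4-fold. Igf2 made up 93.0% of the summed ligand TPM in replicate 2 and 93.1% in replicate 1. The ratio of the ligands therefore varied far less between the pools than either level did. Without division by length, on expected counts, the same log2 ratio was 1.82 ± 0.05, and over protein-coding transcripts alone it was 3.15 ± 0.05.

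Transcripts of Igf2 start at several promoters, and RefSeq lists 4 start sites for the gene, numbered here from the most upstream. The deposited transcript estimates divide much of the gene among transcripts with a first exon over these starts. The 150 bases before each start are therefore shown, from RefSeq on GRCm38.p6. They run 5′ to 3′ on the minus strand, at chr7:142666817-142666966, chr7:142661272-142661421, chr7:142658805-142658954 and chr7:142657497-142657646, and capitals mark GC boxes.
Igf2 start 1: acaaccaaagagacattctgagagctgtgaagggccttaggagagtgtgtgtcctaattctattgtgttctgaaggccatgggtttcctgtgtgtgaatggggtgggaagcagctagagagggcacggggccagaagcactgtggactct
Igf2 start 2: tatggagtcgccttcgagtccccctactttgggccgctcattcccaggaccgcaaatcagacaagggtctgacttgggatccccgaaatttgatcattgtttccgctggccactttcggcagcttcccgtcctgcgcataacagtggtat
Igf2 start 3: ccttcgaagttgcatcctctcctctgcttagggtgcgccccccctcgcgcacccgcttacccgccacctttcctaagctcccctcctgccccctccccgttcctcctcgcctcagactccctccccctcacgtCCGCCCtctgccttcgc
Igf2 start 4: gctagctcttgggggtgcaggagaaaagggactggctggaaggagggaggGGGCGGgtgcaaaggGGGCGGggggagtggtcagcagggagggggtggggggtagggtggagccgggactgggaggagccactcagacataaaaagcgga
The windows of starts 3 and 4 were GC-rich, at 68% and 66.7% GC, and those of starts 1 and 2 had 52% and 54.7%, against a median of 54% over 32851 RefSeq promoters. The GC box (GGGCGG on either strand) occurred 1 time before start 3 and 2 times before start 4 and is found in 28.6% of promoter windows of that length. Neither the TATA box (TATAAA, in 7.57% of windows) nor the CCAAT box (CCAAT, in 24.5%), searched on both strands, occurred in any of the 4 windows. A match of letters is a description and not a site.

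The share of Igf2 given to each start depended on whether TPM or counts were summed. The transcript with its first exon over start 1, Igf2-203, held 40.8% of the gene's TPM in replicate 2 and 40.8% in replicate 1, but 17.3% and 16.9% of its expected counts. Igf2-203 is annotated with only 650 bases, and a short transcript gains weight when counts are divided by length. Start 3 had 8.12% and 8.11% of TPM and 29.0% and 28.1% of counts, through the 4722-base transcript Igf2-205. The first exon of Igf2-205 covers start 3 (142658804) but opens upstream of it, at 142659489. The window printed for start 3 thus lies inside that exon and not before it. Start 4, with Igf2-202 as its main transcript, had 16.1% and 18.8% of TPM and 31.0% and 35.2% of counts. Start 2 was near 0, with 16.18 counts in replicate 2 and 0 in replicate 1. The retained-intron transcript Igf2-206, annotated from 142661205, a little downstream of start 2 (142661271), was given to no start. It held 3.12% and 3.54% of TPM, with 66.07 and 42.25 counts. Transcripts with a first exon over start 3 or 4 together thus took most of the counts given to any of the 4 starts. The remaining 34.9% and 32.3% of TPM lay on transcripts whose first exon covered none of the 4 starts. Most of it was Igf2-208, a processed transcript of 958 bases between 142650843 and 142653030 near the 3′ end of the gene, at 31.6% and 28.5%. Igf2-202 held 14.97% and 17.3%.

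Igf1 was carried mainly by 1 long transcript. Igf1-202, a protein-coding transcript of 7052 bases, held 64.0% of Igf1 TPM in replicate 2 and 67.1% in replicate 1, and 89.1% and 94.3% of the counts. The other transcripts at 10% or more of TPM differed between the libraries. Igf1-203 held 24.3% in replicate 2 and 3.13% in replicate 1, and Igf1-206 held 0% and 21.04%. The Igf1-206 share rested on 18.72 expected counts in replicate 1, with deposited TPM intervals that reached almost to 0 in both libraries, so the split of these short transcripts is uncertain. Igf1 uses alternative leader exons, and transcripts with the upstream leader (87859068 to 87859412) held 88.7% and 70.3% of TPM, or 96.9% and 95.3% of counts.

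Near its 3′ end, Igf1 pre-mRNA is spliced with or without a 52-base exon (chr10:87915298-87915349) that changes the frame and end of the E peptide of the precursor. The junctions are printed from GENCODE M21 transcripts on GRCm38, plus strand, with the 52-base exon in capitals and 15 bases of the neighbouring exons in lower case.
Igf1-203: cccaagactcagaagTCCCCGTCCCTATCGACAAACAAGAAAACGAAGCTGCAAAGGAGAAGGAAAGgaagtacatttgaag
Igf1-202: cccaagactcagaaggaagtacatttgaag
Transcripts with an exon that opens at 87915298 held 28.8% of Igf1 TPM in replicate 2 and 27.9% in replicate 1, a mean of 28.4 ± 0.608% (SD, n = 2). On expected counts their share was 9.65% and 5.04%. They include Igf1-201, which ends at 87915894, past the 52-base exon and before the next exon (87930675). Igf1-201 held 4.56% and 3.84% of TPM and 2.00% and 1.70% of counts, so the share of the junctions printed above is lower. By either measure most Igf1 RNA was assigned to transcripts without an exon that opens there. The difference between the pools was within 1 percentage point on TPM only.

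Among receptors, Insr had the highest TPM, then Igf1r and then Igf2r, and the order of the first pair turned on how the transcripts of Insr were counted. Igf1r, the signalling receptor of both ligands (chromosome 7, 67952827 to 68233668, plus strand), was at 30.4 TPM in replicate 2, against 32.03 TPM in replicate 1. Insr, the insulin receptor (chromosome 8, 3122061 to 3279617, minus strand), was at 36.6 and 35.9 TPM. Igf2r, the clearing receptor, which is expressed from the maternal allele in most mouse tissues (chromosome 17, 12682406 to 12769664, minus strand), was at 16.8 and 16.7 TPM. The 3 genes kept their order in both libraries, with no overlap between them. The log2 ratio of Igf1r to Insr was -0.27 in replicate 2 and -0.16 in replicate 1, a mean of -0.22 ± 0.07. That of Igf2r to Igf1r was -0.85 and -0.94, a mean of -0.90 ± 0.06, and on expected counts without length division it took the other sign, at 0.083 ± 0.048.

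Most Insr TPM lay on a transcript annotated as noncoding. Insr-202 is annotated as a retained intron with 1675 bases in 3 exons, the last of which runs 278 bases past the end of exon 3 (chr8:3211101-3211378). The first 120 of those bases are printed in capitals after the last 30 bases of exon 3, at chr8:3211259-3211408 on the minus strand of GRCm38, from the GENCODE M21 transcript. The capitals open with GT, the usual first bases of an intron.
Insr-202: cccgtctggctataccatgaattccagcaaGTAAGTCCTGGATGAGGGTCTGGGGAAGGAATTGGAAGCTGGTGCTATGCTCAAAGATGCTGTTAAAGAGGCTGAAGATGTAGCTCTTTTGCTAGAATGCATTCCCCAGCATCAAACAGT
Insr-202 was at 32.07 TPM in replicate 2, against 31.3 TPM in replicate 1, or 87.6% and 87.2% of the gene. The protein-coding Insr-201, with 9355 bases, was at 4.54 and 4.61 TPM. On expected counts the 2 transcripts were much closer, and Insr-202 had 54.6% in replicate 2 and 53.6% in replicate 1. Over protein-coding transcripts alone, Igf1r stood 6.69-fold above Insr in replicate 2 and 6.95-fold in replicate 1, a log2 ratio of 2.77 ± 0.04 (SD, n = 2), and on expected counts it was 0.57 ± 0.06. The sign of the receptor ratio therefore differed between gene-level TPM and both other scales. The 36-base exon that separates the insulin receptor forms (chr8:3181702-3181737) is in no measured transcript, so the form that binds Igf2 was not resolved.

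Igf1r and Igf2r were simpler. Igf1r had a single transcript in the measured annotation, with 4489 bases against 11409 bases in GENCODE M21, the only member transcript whose length differed among 37 compared. The expected counts of Igf1r thus cover only the shorter model. Its bearing on the count ratios of Igf1r to Insr and of Igf2r to Igf1r was not tested. Igf2r-201, the coding transcript with 8887 bases, held 97.8% of Igf2r TPM in replicate 2 and 99.3% in replicate 1.

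Igfbp2 and Igfbp4 made up most of the binding protein TPM. Igfbp2, a secreted binding protein with an integrin-binding motif (chromosome 1, 72824503 to 72852474, plus strand), was at 525 TPM in replicate 2, against 442 TPM in replicate 1. Igfbp4, which restrains the ligands until the protease Pappa cleaves it (chromosome 11, 99041244 to 99054392, plus strand), was at 264 and 196 TPM. Igfbp2 was above Igfbp4 and both were above all other binding proteins in each library. Igfbp5, a binding protein that also attaches to extracellular matrix (chromosome 1, 72857932 to 72874884, minus strand), was at 25.6 and 33.2 TPM. Igfbp3, the main carrier of these ligands in adult serum (chromosome 11, 7206086 to 7213923, minus strand), was at 6.29 and 6.67 TPM. Igfbp6, which prefers Igf2 as its ligand (chromosome 15, 102144362 to 102149511, plus strand), was at 0.26 and 0.33 TPM. These 3 differed widely, and Igfbp5 was lower in replicate 2, against the direction of the abundant pair.

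Of the summed TPM of the 5 binding proteins, Igfbp2 held 64.0% in replicate 2 and 65.1% in replicate 1, a mean of 64.5 ± 0.826% (SD, n = 2). Igfbp4 held 32.1% and 29.0%, Igfbp5 3.12% and 4.89%, Igfbp3 0.766% and 0.984% and Igfbp6 0.0317% and 0.0487%. Igfbp2 stayed first on every scale tried, with 46.8 ± 0.224% of expected counts and 77.1 ± 0.521% of TPM over protein-coding transcripts. On the same scales Igfbp4 held 37.7 ± 4.18% and 17.0 ± 2.18%, and Igfbp5, at 4.01 ± 1.25% of TPM, held 14.2 ± 4.21% and 4.79 ± 1.47%. Igfbp2 and Igfbp5 are neighbours that point towards each other on chromosome 1 with 5457 bases between them, yet their mean TPM differed widely and their ratios between the libraries lay on opposite sides of 1.

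Igfbp4, like Insr, had much of its TPM on a short noncoding transcript. Igfbp4-203, a processed transcript of 785 bases, starts with its own exon of 28 bases (chr11:99043597-99043624) in place of the first exon of the coding transcript Igfbp4-201. The start of exon 2 is the same in both, as the junctions from GENCODE M21 on GRCm38, plus strand, show, where capitals mark 28 bases of the first exon.
Igfbp4-203: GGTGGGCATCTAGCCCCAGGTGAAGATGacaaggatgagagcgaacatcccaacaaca
Igfbp4-201: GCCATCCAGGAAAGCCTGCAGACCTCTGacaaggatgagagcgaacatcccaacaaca
Igfbp4-203 held 52.0% of Igfbp4 TPM in replicate 2 and 55.2% in replicate 1, but 17.2% and 18.8% of the counts. Igfbp4-201, with 3831 bases, held 45.9% and 43.8% of TPM and 82.4% and 81.0% of counts. The coding transcripts of Igfbp4 summed to 126 and 87.8 TPM, which still placed it second among the binding proteins. The other 3 detected binding proteins had 1 dominant coding transcript each. Igfbp2-201 held 99.0% and 98.6%, Igfbp3-201 97.7% and 96.1%, and Igfbp5-201 100% in both libraries.

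**Figure D2:**
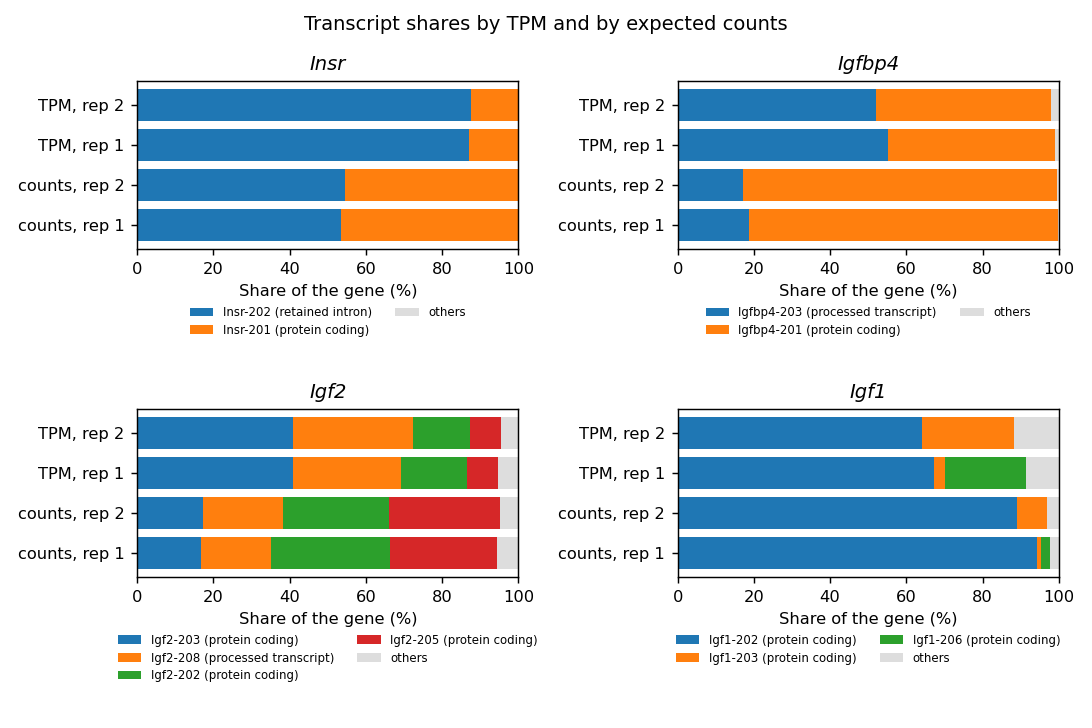
Share of each gene's TPM and of its expected counts held by its transcripts (percent of the gene), for Insr, Igfbp4, Igf2 and Igf1, with replicate 2 above replicate 1 in each pair of bars. Short transcripts such as Insr-202 and Igfbp4-203 take a larger share of TPM than of counts, and the bars of the libraries are alike except for the short Igf1 transcripts.

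Between the pools, the ratio of none of the 10 genes reached 1.5-fold under the main (TMM) scaling, and 6 differed by more than counting error. With spike-in size factors, the ratios of Igf1, Igf2 and Igfbp4 were 1.70, 1.62 and 1.64. To be called, a gene needed an adjusted p under 0.05 in an exact binomial test between the libraries, a 1.5-fold ratio or more, and a mean level of 1 TPM or more. That rule called 0 of the 10 genes, beside 3.56% of all 15199 genes tested at that level. At any ratio, 4 of the 10 were higher in replicate 2 and 2 were lower, beside 26.5% of all genes with an adjusted p under 0.05. Without adjustment 6 of the 10 also had a p under 0.05 in the exact binomial test, and 4 did in the negative binomial exact test of edgeR. No share of all genes is given at that unadjusted threshold, so these counts cannot be set against a background. The adjusted p of the negative binomial exact test was under 0.05 for 0 of the 10 and for 1.33% of all genes. The binomial test covers counting error only and compares these libraries, not conditions. It is met by many abundant genes, since the log2 ratios of all 7181 genes with a mean of at least 1000 counts had an SD of 0.141.

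Igf1, Igfbp4, Igf2 and Igfbp2 were the genes higher in replicate 2. Igf1 had 1448 counts in replicate 2 against 798 in replicate 1, a normalised ratio of 1.41 (95% exact binomial interval 1.29 to 1.54, adjusted p = 1.57e-13). Igfbp4 had 12276 and 7017 counts, a ratio of 1.36 (1.32 to 1.40, exact binomial test, adjusted p = 8.32e-93). Igf2 had 4996 and 2893 counts, a ratio of 1.34 (1.28 to 1.40, exact binomial test, adjusted p = 9.72e-35). Both ligands and Igfbp4 thus shared a ratio near the 1.5-fold threshold and below it. For Igfbp2 the ratio was 1.17 (1.14 to 1.20, exact binomial test, adjusted p = 4.12e-30), from 14173 and 9415 counts. The negative binomial exact test of edgeR used 1 spread for all genes, estimated from these same 2 libraries. The differences tested are therefore part of that spread. Its adjusted p was 0.383 for Igf1, 0.482 for Igfbp4, 0.549 for Igf2 and 1 for Igfbp2 in the negative binomial exact test.

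Igfbp5 and, by a small margin, Igf1r were lower in replicate 2. Igfbp5 had 3393 counts in replicate 2 against 3471 in replicate 1, a ratio of 0.759 after normalisation (0.724 to 0.796, exact binomial test, adjusted p = 6.58e-28). Its adjusted p in the negative binomial exact test was 0.664. Igf1r had a ratio of 0.931 (0.883 to 0.983, exact binomial test, adjusted p = 0.0410). That direction depends on the scaling, since with spike-in size factors the Igf1r ratio was 1.12 (exact binomial test, adjusted p = 4.80e-05). For Insr the ratio was 0.988 (0.926 to 1.06), for Igf2r 0.976 (0.927 to 1.03) and for Igfbp3 0.932 (0.790 to 1.10), with adjusted p-values of 0.872, 0.584 and 0.631 in the exact binomial test. At 6 counts in each library, the Igfbp6 ratio of 0.777 had an interval of 0.208 to 2.91, and no difference was detectable at this depth. Deposited TPM intervals were apart between the libraries for Igf1, Igf2, Igfbp2, Igfbp4 and Igfbp5, 5 of the 10 genes, beside 16.1% of all genes tested.

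**Figure D3:**
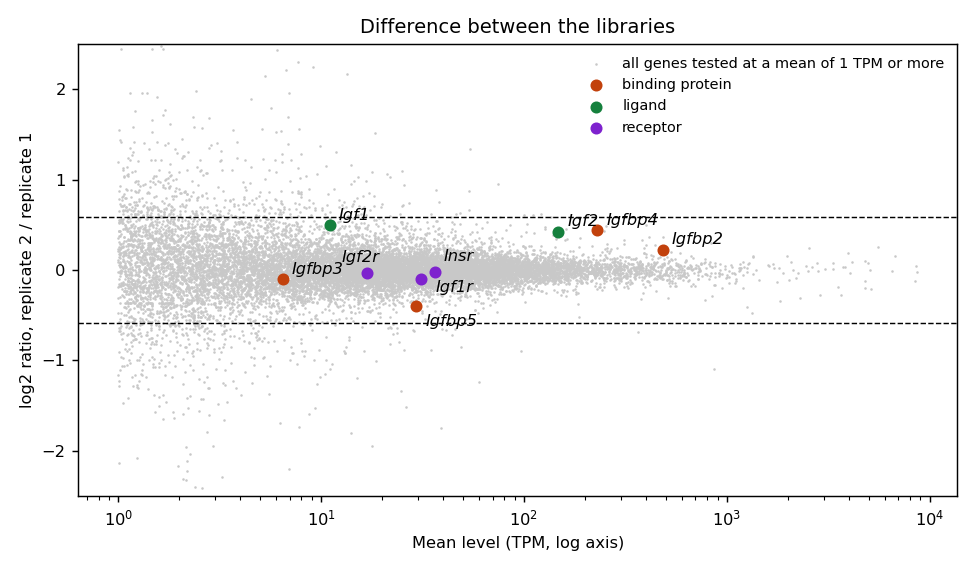
Log2 ratio of replicate 2 to replicate 1 against mean TPM (log axis), for the 9 genes at 1 TPM or more, coloured by role, and for all genes tested at that level in grey, with dashed lines at 1.5-fold. All 9 lie between the lines, and 39 of the grey genes lie beyond the limits of 2.5 on the vertical axis.

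Markers of connective tissue differed between the pools in the same direction as the ligands. The 11 mesenchyme and meninges markers summed to 1615 TPM in replicate 2, against 1133 TPM in replicate 1, all 11 were higher in replicate 2, and their median log2 ratio was 0.44. Col3a1, Col1a1 and Col1a2 were the most abundant, and Postn, at 2.08-fold, and Ogn, at 1.74-fold, were called higher (exact binomial test, adjusted p = 5.00e-65 and 1.48e-22). The part of such cells in the ratios of the 10 genes was not tested.

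Several other lists also lay on 1 side, with 8 of 8 macrophage and microglia, 7 of 7 red cell, 6 of 6 pericyte and 5 of 5 skin genes higher in replicate 2 and 4 of 4 tested liver and yolk sac genes lower. Summed TPM was 185 in replicate 2 and 160.04 in replicate 1 for 8 endothelium markers (led by Egfl7, Cldn5 and Kdr), 135 and 108 for 8 macrophage and microglia markers (C1qb, Fcer1g, Tyrobp), and 38.4 and 32.2 for 6 pericyte markers (Pdgfrb, Kcnj8, Rgs5), with no gene called. For 7 red cell genes (Hbb-y, Hba-a2, Hba-a1) it was 18078 and 15443, and for 5 skin genes (Krt8, Krt15, Krt5) 26.4 and 18.8, also with no gene called. For 9 skeletal muscle and cartilage genes it was 184 and 123, with Col2a1 and Matn4 called higher, Tnnt1 next by level, and Matn1 at 0 in replicate 1. For 6 choroid plexus genes it was 32.2 and 54.3, with Aqp1 called higher, Ttr, Clic6 and Kcne2 called lower and Folr1 not called. For 6 liver and yolk sac genes it was 18.06 and 39.8, with Afp, Apoa1 and Apoa2 called lower, Trf the most abundant, Fgb at 0 in replicate 2 and Alb at 0 in both. Neuroepithelium (Nes, Otx2, Sox2) summed to 351 and 364, and neuron markers (Tubb3, Stmn2, Ina) to 1987 and 2083, with no gene called. The neuroepithelium list was mixed, since those 3 abundant genes were lower in replicate 2 and the other 4 were higher. These were En1 at 1.41-fold, Pax5 at 1.43-fold, Pax7 at 1.20-fold and En2 at 1.42-fold, and the median log2 ratio of the list was 0.26. Of the neuron markers, 5 were lower and 1 was higher. The part of these lists in the ratios of the 10 genes was not tested either.

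**Figure D4:**
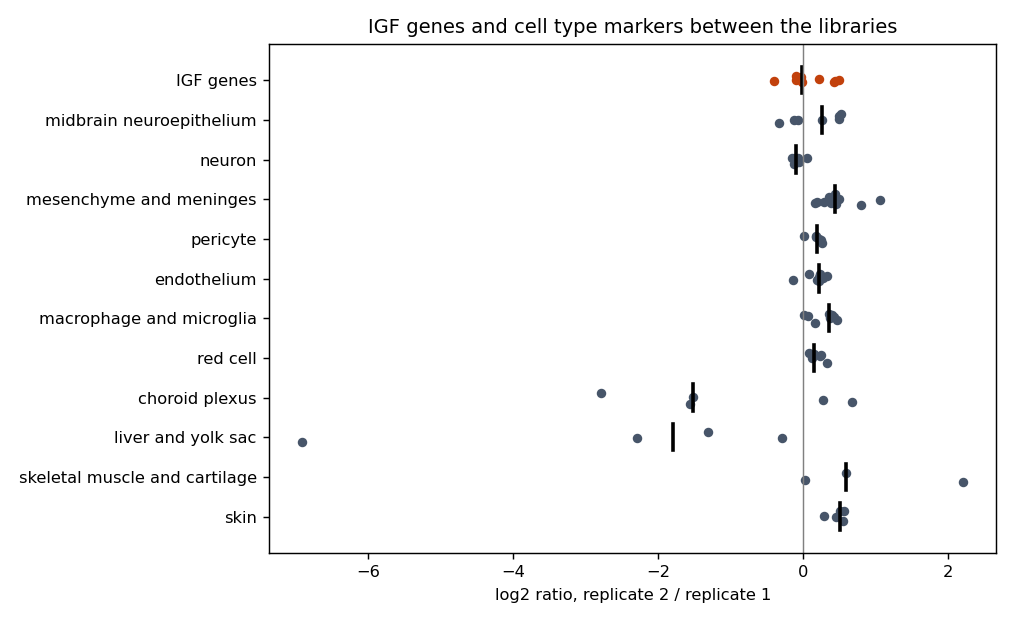
Log2 ratio of replicate 2 to replicate 1 for the IGF genes and for cell type markers, each at a mean of at least 1 TPM, with 1 point per gene and a black bar at the median of each list. All 11 mesenchyme markers lie right of 0, and the liver and yolk sac genes lie left of it.

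Most intracellular genes of the pathway were expressed and most other hormones of the insulin family were not. Of 81 further genes in 7 lists, 58 were at 1 TPM or more in both libraries, and 3 were called higher in replicate 2 and 0 lower, beside 2.18% and 1.38% of all genes tested. The phosphatidylinositol 3-kinase, Akt and mTOR list had 24 of 25 genes at that level and a median of 27.6 ± 0.707 TPM (SD, n = 2), against 21.2 TPM over all expressed protein-coding genes. It was led by Rheb, the GTPase that activates mTOR, at 149 ± 7.16 TPM, the kinase gene Gsk3b at 122 ± 4.24 TPM and the regulatory subunit gene Pik3r3 at 98.4 ± 3.73 TPM, and Foxo6 alone was under 1 TPM in both libraries. Adaptors and feedback genes had 14 of 15 at that level. Grb10, an imprinted adaptor that inhibits both receptor kinases, was the highest at 283 ± 9.28 TPM, far above Igf1r and Insr themselves. It was followed by the adaptor gene Grb2 at 113 ± 4.55 TPM and the phosphatase gene Ptpn1 at 91.0 ± 3.09 TPM, and Irs4 was under 1 TPM.

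Proteases that cleave binding proteins, with their inhibitors, had 7 of 9 genes at 1 TPM or more. Mmp2 led with 43.9 TPM in replicate 2, against 29.6 TPM in replicate 1, then Adam9 with 22.1 and 21.5 TPM and Htra1 with 7.68 and 4.96 TPM. Pappa2, a protease of Igfbp3 and Igfbp5, was called higher at 1.64-fold (exact binomial test, adjusted p = 3.57e-06), with overlapping TPM intervals at 2.68 and 1.5 TPM. The adjusted p of Pappa2 in the negative binomial exact test was 0.126. Pappa, the protease of Igfbp4, was at only 1.21 and 1.01 TPM, and Stc2 and Adam28 were under 1 TPM in both libraries. Among other binding proteins, Igfbpl1 at 54.1 ± 2.66 TPM and Igfbp7 at 29.3 ± 0.0919 TPM were detected, while Igfbp1, Kazald1 and Igfals, the serum partner of Igfbp3, were under 1 TPM. Igfbp1 lies 3539 bases from Igfbp3 and had 4 and 5 counts.

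The genes listed as other ligands and receptors of the insulin family were mostly near 0, with 2 of 9 at 1 TPM or more. These were Igflr1 at 5.68 ± 1.44 TPM and Insl6 at 4.04 ± 1.13 TPM. Igflr1 is in the list by its name and is not a receptor of insulin, Igf1 or Igf2. The next, Insrr, the insulin receptor-related receptor, was at 0.98 and 1 TPM. Of the insulin genes, Ins1 had no count in either library and Ins2, which lies 11839 bases from Igf2, had 0 counts in replicate 2 and 1 in replicate 1, so insulin transcripts were not detectable at this depth. Rln1, Insl3, Insl5 and Rln3 were also under 1 TPM in both. In the growth hormone axis 4 of 8 genes were detected, with the signal transducer gene Stat5b at 15.2 ± 0.827 TPM, the kinase gene Jak2 at 14.4 ± 0.997 TPM and the receptor gene Ghr at 13.2 ± 2.24 TPM. The hormone gene Gh and the receptor gene Ghrhr had no count in either library, and Ghrh and Prlr were under 1 TPM.

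Genes beside Igf2 and Igf2r in the imprinted loci had 5 of 10 at 1 TPM or more. H19, the maternally expressed noncoding RNA that shares an imprinting control region with Igf2 and lies 72622 bases from it, was at 78.2 TPM in replicate 2, against 52.9 TPM in replicate 1. Its ratio of 1.44 (1.36 to 1.53, exact binomial test, adjusted p = 2.31e-30) lay under the 1.5-fold threshold, as that of Igf2 did, so the reciprocally imprinted neighbours were both higher in replicate 2. Mrpl23 was at 42.9 and 61.04 TPM. Th, which makes the dopamine precursor, was called higher at 1.76-fold with 23.5 and 13.1 TPM (exact binomial test, adjusted p = 1.46e-20). Lsp1 was called higher at 1.61-fold on counts (exact binomial test, adjusted p = 2.94e-05), but its TPM were closer, at 8.94 and 7.92, with overlapping intervals. In the negative binomial exact test the adjusted p was 0.0120 for Th and 0.186 for Lsp1. Airn, the noncoding RNA antisense to Igf2r, was at 3.47 and 2.44 TPM, and Igf2os, Slc22a2, Slc22a3 and Tnni2 were under 1 TPM in both. Igf2os overlaps Igf2 by 7124 bases on the other strand, and since the sources do not say whether counting used strand, reads of these partners cannot be told apart here.

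**Figure D5:**
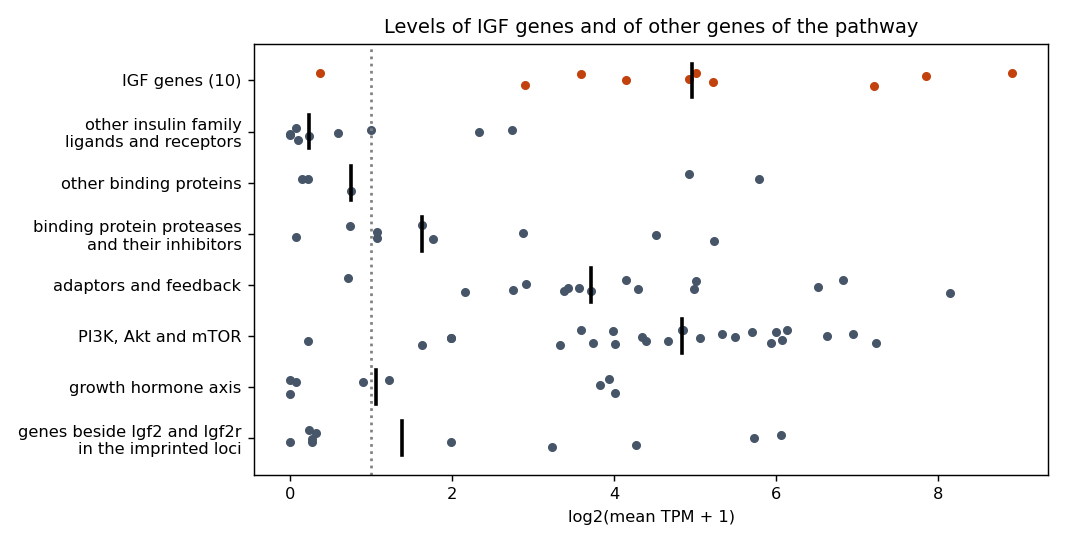
Mean level of each gene as log2(mean TPM + 1), for the IGF genes and the 7 lists of other pathway genes, with 1 point per gene, a black bar at each median and a dotted line at 1 TPM. The adaptors and the PI3K, Akt and mTOR list lie mostly right of the line, and other ligands and receptors mostly left of it.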

How the data were processed

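RNA of 2 libraries of 1 group was analysed. Per the file headers, the authors estimated an expected count for each gene and transcript, which need not be whole, in columns like those RSEM writes. The deposited TPM were normalised by the authors to effective length and library, with posterior mean TPM beside them. The deposited isoform percent is each transcript's share of its gene's abundance. The deposited interval bounds, recorded as a score on the TPM scale, need not enclose the TPM. Per the file notes, the annotation was GENCODE M4 on mm10. Aligner, versions and strand use were not given in the sources used here, and the labels link a SMARTer Ultra Low kit manual beside the mirVana extraction.

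Identifiers without version were matched to GENCODE M21 (42462 of 43346 genes, all 10 members). Promoter sequences came from RefSeq. Counts were rounded and scaled by TMM factors (1.003 for replicate 2, 0.997 for replicate 1, edgeR 4.0.16, R 4.3.3), with spike-ins left out (3.48% and 4.14% of counts). Genes with at least 10 counts summed entered a two-sided exact binomial test with Benjamini-Hochberg adjustment over all of them. The negative binomial exact test used a common coefficient of variation of 0.0939, estimated with an intercept only, and log2 ratios had 0.5 counts added. The labels do not say more of how the pools were separated, so p-values compare only these libraries. Those of the binomial test cover counting error only. Intervals of ratios cover counting error only.

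The TMM scaling and the exact binomial call were tested on simulated counts with counting error only and with changes larger than the ratios of the 10 genes. The other steps were not tested in that way. Alternatives were DESeq2 1.42.0, total-count and spike-in size factors, count, fold and TPM thresholds, pseudocounts, posterior mean TPM, rescaled TPM, length-scaled counts and leaving out each library. The members, lists and tests were chosen with earlier results of these data known. In each list the 3 most abundant genes, called genes and genes under 1 TPM were named, and transcripts at 10% or more of their gene in a library; Igf2-205, Pappa, Insrr and Airn were added after their values were seen. A gene that the rule takes is not reported here by name. Python 3.11.15, scipy 1.17.1, pandas 2.3.3 and numpy 2.4.6 were used.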

Additional observations from a re-analysis of the deposited data

How the results depend on the processing

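Of 244 alternative values, 178 kept their direction, call or size, 46 moved, 8 became stronger, 3 weaker and 9 reversed. On expected counts without length division, the log2 ratio was 0.57 for Igf1r to Insr and 0.083 for Igf2r to Igf1r, both against the sign on TPM, 1.82 for Igf2 to Igf1, and Igfbp2 held 46.8% of binding protein counts. Over coding transcripts alone, chosen after seeing the data, these were 2.77 for Igf1r to Insr (reversed) and 3.15 for Igf2 to Igf1, and 77.1% for Igfbp2. With posterior mean TPM they were 3.66 for Igf2 to Igf1 and -0.82 for Igf2r to Igf1r. By share of expected counts, also chosen after seeing the data, Insr-202 held 54.1% of Insr.

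Spike-in size factors moved the median log2 ratio of all genes by 0.27, and 3 of the 10 genes were then called, Igf1 at 1.70-fold, Igf2 at 1.62-fold and Igfbp4 at 1.64-fold. Igf1r at 0.17, Igf2r at 0.24, Insr at 0.25 and Igfbp3 at 0.17 then took the other sign on the log2 scale, with adjusted p-values of 4.80e-05, 2.51e-09, 3.67e-07 and 0.227 in the exact binomial test, and all 4 lay below the shift of the median gene. With the ratio of deposited TPM, Igf2r at 0.011 and Insr at 0.029 did as well; the cause was not tested. The count of all genes called was 541 with 332 higher and 209 lower in replicate 2, and 1328 with spike-in factors (1209 higher, 119 lower), 202 in the negative binomial exact test, 212 at 2-fold or more, 4031 at any ratio, 206 at 5 TPM or more and 852 at any TPM. At any ratio 6 of the 10 genes were called. Leaving out a library leaves each other library's own value as the range, from 3.73 to 3.75 for Igf2 to Igf1, -0.27 to -0.16 for Igf1r to Insr, -0.94 to -0.85 for Igf2r to Igf1r, 64.0% to 65.1% for the Igfbp2 share and 87.2% to 87.6% for Insr-202, and no value for a difference between libraries. No paired analysis was possible because there is 1 group. With 2 libraries an SD is itself imprecise, and Igfbp6, at 6 counts in each library, is limited by depth.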

Other observations

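The deposited TPM interval did not enclose the deposited TPM for Igfbp2 in either library. In replicate 2 the level was 525 TPM with an interval of 504 to 521 TPM, and in replicate 1 it was 442 TPM with an interval of 419 to 436 TPM. The posterior SD of the gene-level count was 0 for 9 of the 10 genes in both libraries and 0.15 for Igf2 in replicate 1. At transcript level it was larger, with 30.3 counts for Igf2-203 in replicate 2 and 24.7 in replicate 1.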
